A study of Mus musculus with 24 samples.

Results

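One hairpin against Cdk8, shCdk8-2, was compared with a non-targeting hairpin, shNTC, in R1 mouse embryonic stem (ES) cells on day 8 after infection. The comparison holds 6 of the 24 arrays of the series: the 3 arrays labelled shCdk8-2 and the 3 labelled shNTC at that time, picked by their titles. All groups were R1 cells infected with a lentivirus carrying a short hairpin RNA, so the control cells share the infection but not the target. The other groups used here were R1 cells with a second Cdk8 hairpin, shCdk8-1, on day 8, and R1 cells with shNTC or shCdk8-2 on day 13, each on 3 arrays. Each array set Cy5-labelled RNA of the cells against a Cy3-labelled universal mouse reference RNA, a mixture from several mouse cell lines. The labels number the replicates without telling whether each was its own infection, and p-values therefore cover only how far these arrays vary. The host is 1 ES cell line, and the sequences of the hairpins were not used here.

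Mediator is the large complex through which enhancer-bound transcription factors reach RNA polymerase II. Its detachable kinase module consists of the kinase Cdk8 or its paralog Cdk19, cyclin C, Med12 or its paralog, and Med13 or its paralog. In mouse ES cell cultures most cells are in a naive pluripotent state, while small numbers drift towards primitive endoderm, towards the later, primed epiblast, or briefly into a state that resembles the 2-cell embryo.

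Values are log2 ratios of the cells to the reference, and differences are shCdk8-2 minus shNTC (log2), given with the fit's standard error (SE). A gene was called at a Benjamini-Hochberg adjusted p under 0.05 in limma's test over 22404 genes. Between 62.3% and 69.0% of the spots were well above background on the 6 arrays. The ES cell label fitted the markers: all 9 ES cell markers on the array were well above background on all 6 arrays, with mean ratios between 6.46 and 6.64, and none was called. Of 10 fibroblast or feeder markers, Postn was not well above background on any shCdk8-2 array, and the other 9 had mean ratios of -5.16 to -4.45 on the shNTC arrays and -5.22 to -5.12 on the shCdk8-2 arrays. Among them Fn1 was higher and Pdgfrb lower. Of 7 trophoblast markers, Elf5 and Tpbpa were not well above background on any of the 6 arrays, and Hand1 was well above background on no shCdk8-2 array and is left without a value. Gata3 was the 1 called lower of the other 4, whose mean ratio was 0.97 to 0.99 with shNTC and 0.79 to 0.91 with shCdk8-2. The part of feeder or trophoblast RNA in the results that follow was not tested.

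The target itself fell modestly on day 8. Cdk8 was at -0.57, -0.41 and -0.55 on the shNTC arrays and at -0.87, -0.85 and -0.73 on the shCdk8-2 arrays. The groups did not overlap, and the difference of -0.31 (SE 0.08, adjusted p = 0.0098 in limma) left 80.8% of the shNTC level. On the 1 slide that held both groups the difference was -0.16, and a fit with slide as a block gave -0.27, which missed the threshold (adjusted p = 0.054). A further Cdk8 probe gave -0.39. The call was also lost without the second shNTC array (adjusted p = 0.057), with median centring in place of loess (0.17) and after scaling between arrays (0.052).

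Among the other genes of the kinase module, only Med12 kept its call in the slide block fit. Med12, the subunit that activates the kinase, was at -0.88, -0.86 and -0.79 with shNTC and at -0.54, -0.67 and -0.30 with shCdk8-2. Its groups did not overlap, and it rose by 0.34 (SE 0.08, adjusted p = 0.0028 in limma), a size close to that of the Cdk8 difference. The slide block gave 0.45, the shared slide 0.58 and a further probe 0.42, while median centring (adjusted p = 0.12), scaling (0.25) and the Cy5 channel alone (0.11) ended the call. Cdk19 fell by 0.19 (adjusted p = 0.04), but its arrays overlapped, the slide block ended its call (adjusted p = 0.25), and the Cy5 channel alone gave 0.21. Cyclin C (Ccnc) differed by 0.14 and Med13l by 0.04, neither called, and a further Ccnc probe gave -0.11. No probe was matched to Med13 or Med12l. Of 23 tested genes of the core of Mediator, 3 were higher (13%) and 4 lower (17.4%), with a median of -0.07, and median centring called none (no kinase module gene either). Over all genes the shares were 10.8% and 9.57%. Among the core genes Med25 was the highest at 0.25, and Med27 and Med31 were the lowest at -0.24 and -0.24.

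Across all genes the changes were many and small. With shCdk8-2, 2416 genes were higher (10.8% of those tested) and 2145 lower (9.57%), and the median of all genes was 0.00. The median size of a called difference was 0.29, and 2508 of the 4561 called genes differed by under 0.3. Only 37 genes changed at least 2-fold, of which 33 were lower and 4 higher. Median centring in place of loess gave 444 higher and 541 lower, and scaling between arrays 1018 and 782. For most lists, day 8 counts against shNTC under both settings therefore stand in brackets beside the main counts, in the same order of directions. List counts of the direct hairpin comparison and of day 13 were not made under these settings. The main day 8 list counts compare with 10.8% higher and 9.57% lower over all genes. With slide as a block, 2736 of the 4561 were called again in the same direction and none turned. The 15 lowest named genes included endoderm transcription factors and basement membrane collagens. The 15 highest included the NODAL antagonists Lefty1 and Lefty2 and the epiblast growth factor Fgf5. For both sets of 15, groups that do not overlap were a condition of the choice. Where no overlap is stated for these genes, it is therefore no further evidence.

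**Figure D1:**
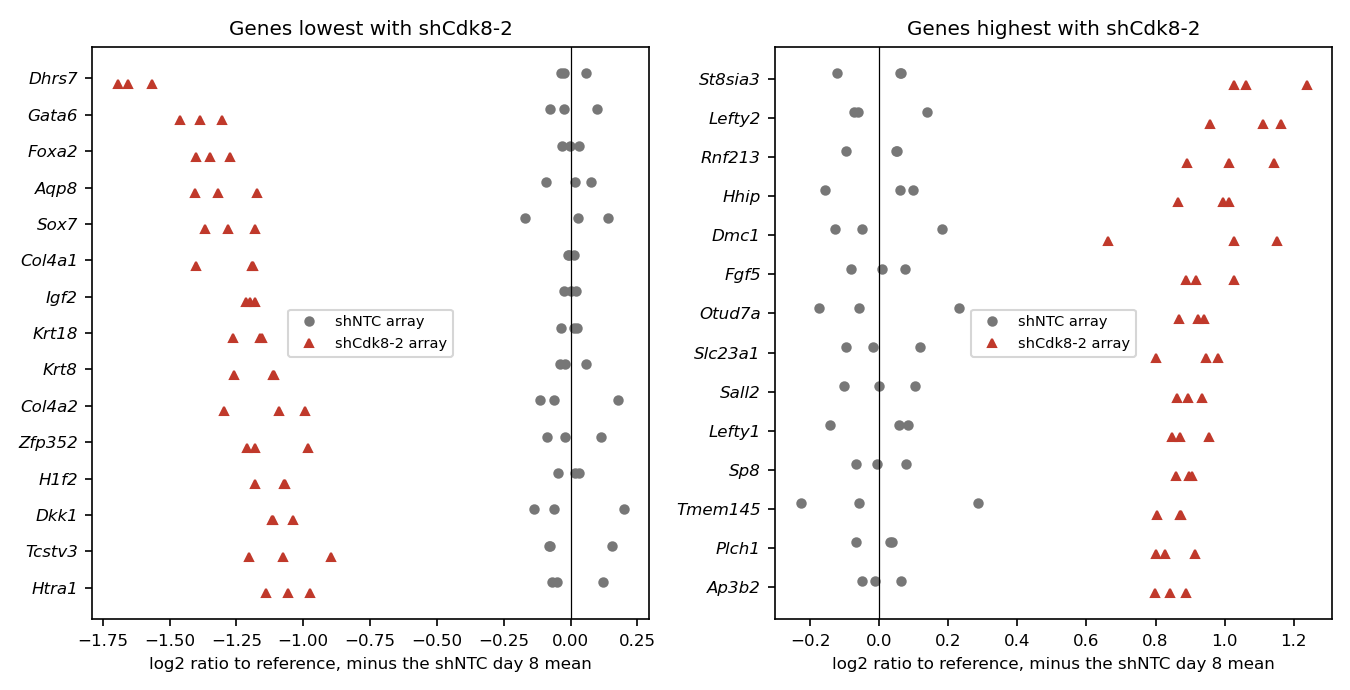
Each point is 1 array, as the log2 ratio to the reference minus the mean of the 3 shNTC arrays of day 8, for the 15 lowest genes and 14 of the 15 highest; grey circles are shNTC and red triangles shCdk8-2. The groups are apart for every gene shown, because not overlapping was a condition of the choice, from Dhrs7 (-1.64) to St8sia3 (1.11).

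Dhrs7, a short-chain dehydrogenase/reductase, had the largest fall among called genes with a symbol and no overlap. It was at -2.47, -2.55 and -2.56 with shNTC and at -4.09, -4.18 and -4.22 with shCdk8-2. The difference of -1.64 (SE 0.06, adjusted p = 4.9e-14 in limma) left 32.1% of the control level, and it was -1.75 within the shared slide. Aqp8, a water channel, fell by 1.30 (SE 0.08), from 1.24, 1.30 and 1.13 to 0.05, -0.19 and -0.10. Igf2, an imprinted growth factor, fell by 1.20 (SE 0.05), from 0.21, 0.19 and 0.23 to -0.99, -1.003 and -0.97. In each of these genes the gap between the groups was wider than the spread within them. Dkk1, a secreted WNT antagonist, fell by 1.09 (a further probe gave -0.64), and Htra1, a secreted serine protease, fell by 1.06.

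Genes of primitive endoderm, the extra-embryonic lineage set aside beside the epiblast, were lower as a group. All 10 markers of that lineage were well above background in both groups and 9 were lower, with a median of -0.95. Their mean ratio was 0.00 to 0.05 on the shNTC arrays and -0.90 to -0.88 on the shCdk8-2 arrays. Gata4 was the exception and was not called (adjusted p = 0.3). In bulk RNA, fewer cells of a type and less RNA per cell cannot be told apart. In the wider list of primitive and visceral endoderm, 30 of 35 genes were tested, 15 were lower and 2 (Grb10 and Cldn6) higher (11 and 0 with median centring, 7 and 0 with scaling), and the median was -0.24 (-0.22 with slide as a block and -0.24 within the shared slide). For 20 of the 30, all 3 shCdk8-2 arrays lay below all 3 shNTC arrays, as they did for 16.5% of all genes.

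Transcription factors of the lineage had the largest called falls of this list. Gata6, which drives primitive endoderm fate, was at -1.24, -1.29 and -1.12 with shNTC and at -2.68, -2.60 and -2.52 with shCdk8-2. Its difference was -1.38 (SE 0.08, adjusted p = 4.9e-11 in limma), but 2 further Gata6 probes gave -0.32 and -0.21. Foxa2, a pioneer factor of endoderm, was at 1.76, 1.80 and 1.74 with shNTC and at 0.42, 0.37 and 0.49 with shCdk8-2, a difference of -1.34 (SE 0.06, adjusted p = 1.7e-12). None of these arrays overlapped between the groups. Sox7 fell by 1.28 (SE 0.08), from 1.47, 1.36 and 1.16 to 0.15, 0.05 and -0.04, and its relative Sox17 fell by 0.81 (SE 0.09). The visceral endoderm factors Hnf4a and Foxa1 were at -0.14 and -0.03 and were not called.

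Receptors and secreted matrix of the same lineage were lower too. Dab2, an endocytic adaptor, fell by 0.92 and the growth factor receptor Pdgfra by 0.82. Parietal endoderm lays down a thick basement membrane, and 11 of the 16 genes of its secreted products were lower and none higher (8 with median centring, 3 with scaling), with a median of -0.42 (-0.44 within the shared slide). Among the 11 is Thbd, not well above background on any array of a group. The type IV collagen genes Col4a1 and Col4a2 fell by 1.26 and 1.13, and their further probes gave -1.10 and -1.11. The laminin chain Lama1 was at 4.33, 4.13 and 4.07 with shNTC and at 3.22, 3.04 and 3.34 with shCdk8-2, a fall of 0.98 with no overlap. Sparc, a matrix glycoprotein, fell by 1.05 (a further probe gave -0.59). The laminin chain Lamc1 (-0.04) and the nidogen Nid2 (0.17) were not called. Srgn, a proteoglycan gene with the lowest value of the endoderm list (-1.68), was at -0.27, -0.40 and -0.44 with shNTC and at -2.12, -2.06 and -1.96 with shCdk8-2. These groups did not overlap, but the SE of 0.85, which pools the spread of all 8 groups, left it not called (adjusted p = 0.18).

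**Figure D2:**
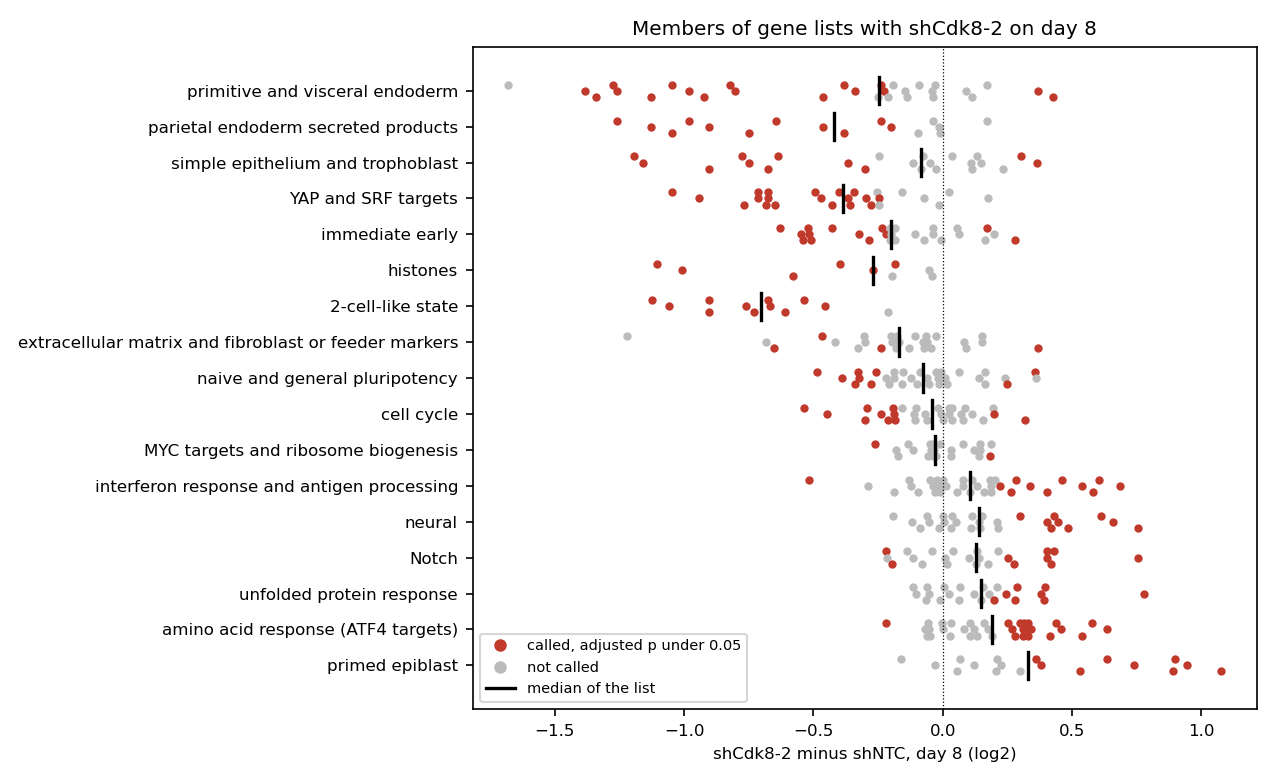
Each point is 1 gene of a list, as shCdk8-2 minus shNTC on day 8 (log2); red points were called, grey points were not, and the black bar is the median, which runs from -0.70 in the 2-cell-like list to 0.33 in the primed epiblast list. Some genes stand in more than 1 list.

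Keratins and connexins of simple epithelia were lower as well. Krt18 was at -1.94, -1.89 and -1.87 with shNTC and at -3.06, -3.06 and -3.16 with shCdk8-2, a fall of 1.19 (SE 0.05, adjusted p = 1.4e-12 in limma). Its partner Krt8 fell by 1.16 (SE 0.06), from -1.97, -2.05 and -2.07 to -3.29, -3.14 and -3.15, and a further probe gave -1.04. Neither pair of groups overlapped, a condition of their choice. The gap junction gene Gjb5 fell by 0.90, and the keratins Krt7 and Krt19 by 0.78 and 0.68. Over the list of simple epithelium and trophoblast, 9 of 23 tested genes were lower and 2 (Epcam and Igf2bp3) higher (8 and 0 with median centring, 6 and 0 with scaling), with a median of -0.08. The lower genes count Hand1, which was measured with shNTC only. The junctional cadherin Cdh1 was at 0.04 and the trophoblast regulator Cdx2 at -0.08, neither called.

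Targets of YAP and of serum response factor (SRF), which respond to tension and actin assembly, were lower across most of their list. Of 26 tested genes, 19 were lower and none was higher (12 with median centring, 10 with scaling), with a median of -0.38 (-0.38 with slide as a block and -0.46 within the shared slide). F3, the gene of tissue factor, fell by 1.05 (SE 0.09), from -1.10, -1.15 and -1.19 to -2.27, -2.31 and -1.997, with no overlap; a further probe gave -0.73. The smooth muscle genes Tagln and Acta2 fell by 0.71 and 0.65. The classical YAP targets Ankrd1, Ccn2 and Ccn1 fell by 0.67, 0.40 and 0.30. Vcl (0.18) and Ajuba (0.03) were not called.

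Immediate early genes, the first to answer growth factor signals, showed fewer and smaller falls. Of 27 tested, 11 were lower and 2 (Jund and Mcl1) higher (7 and 0 with median centring, 4 and 0 with scaling), with a median of -0.20. The lower genes count Fosl2, not well above background on any array of a group. Arc was at 1.48, 1.33 and 1.34 with shNTC and at 0.80, 0.80 and 0.92 with shCdk8-2, a fall of 0.54 (SE 0.05) with no overlap. The AP-1 gene Junb fell by 0.52, Nr4a1 by 0.51, Jun by 0.32 and Egr1 by 0.24. Srf itself fell by 0.29, whereas Fos, at -0.21, and Fosb, at -0.07, were not called. Among genes that ERK signalling induces or that feed back on it, 5 of 17 were lower and 4 higher (2 and 1 with median centring, 2 and 1 with scaling), with a median of 0.01. Phlda1 and Etv4 fell by 0.63 and 0.39, while Etv1 and the phosphatase gene Dusp6 rose by 0.40 and 0.22.

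Most tested genes of the 2-cell-like state were lower, a count that scaling between arrays ended. Of 21 listed genes 12 could be tested, 11 were lower and none was higher (11 with median centring, 1 with scaling), with a median of -0.70 (-0.68 within the shared slide and -0.47 with scaling). Zfp352, a zinc finger gene of the early embryo, was at 3.14, 3.35 and 3.21 with shNTC and at 2.02, 2.05 and 2.25 with shCdk8-2. Its difference was -1.13 (SE 0.10, adjusted p = 4.6e-08 in limma), and a further probe gave -0.50. Tcstv3 fell by 1.06 (SE 0.20), from 4.55, 4.79 and 4.55 to 3.43, 3.73 and 3.55, and a further probe gave -1.32. Neither pair of groups overlapped, a condition of their choice. Tcstv1 fell by 0.76 and Zscan4c, of the family that best marks the state, by 0.73. Several of these families hold near-identical copies, so their probes may read each other's transcripts and single members are uncertain.

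Some oocyte and histone genes were lower as well. Gdf9, an oocyte growth factor, fell by 0.94 and Khdc3, of a maternal complex, by 0.76, but only 4 of 28 tested germ line genes were lower (4 with median centring, 2 with scaling). That share of 14.3% compares with 9.57% of all genes. The 1 that was higher was Taf7l (0.56), a germ cell TFIID subunit, with 0.23 from a further probe. The meiotic recombinase gene Dmc1, outside that list, rose by 0.95 (SE 0.11), from 1.14, 0.83 and 0.91 to 1.98, 2.11 and 1.62. Of 9 tested histone genes 6 were lower and none higher (4 with median centring, 2 with scaling), with a median of -0.27. The linker histone gene H1f2 was at -2.30, -2.24 and -2.22 with shNTC and at -3.43, -3.32 and -3.32 with shCdk8-2, a fall of 1.11 (SE 0.11) with no overlap. H2bc4 fell by 1.01 and H2ax by 0.27.

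Genes of the primed epiblast were higher. Of 18 tested, 9 were higher and none lower (7 with median centring, 6 with scaling), with a median of 0.33 (0.41 with slide as a block and 0.39 within the shared slide). For 10 of the 18, all 3 shCdk8-2 arrays lay above all 3 shNTC arrays, as they did for 17.5% of all genes. Lefty2 was at 1.69, 1.91 and 1.71 with shNTC and at 2.93, 2.88 and 2.73 with shCdk8-2, a rise of 1.08 (SE 0.12, adjusted p = 1.1e-06 in limma). Its neighbour Lefty1, also a feedback antagonist of NODAL, rose by 0.89 (SE 0.07), from 5.02, 5.05 and 4.82 to 5.92, 5.81 and 5.84. Fgf5 rose by 0.94 (SE 0.12), from 1.32, 1.39 and 1.23 to 2.20, 2.23 and 2.34. No array of either group crossed into the other in these genes, a condition of their choice. The homeobox gene Otx2 rose by 0.74, Sall2 by 0.90, Lef1 by 0.64 and the DNA methyltransferase gene Dnmt3b by 0.36, while the methyltransferase gene Dnmt3a (0.07) and Pou3f1 (0.21) were not called.

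Signalling genes around NODAL, BMP and WNT split. In the TGF-beta, NODAL and BMP list 5 of 30 were higher and 8 lower (4 and 4 with median centring, 2 and 4 with scaling), with a median of -0.11. The shares of 16.7% and 26.7% compare with 10.8% and 9.57% of all genes. Bmp4 fell by 0.67, the BMP targets Id1 and Id3 by 0.29 and 0.27, and the activin subunit Inhbb by 0.80. Of 28 WNT targets and antagonists 6 were higher and 5 lower (2 and 3 with median centring, 4 and 3 with scaling), shares of 21.4% and 17.9%. Sp8 rose by 0.89 and Sfrp2 by 0.49, Sp5 fell by 0.41, and Axin2 was at -0.18, not called. Hhip, the antagonist of hedgehog, rose by 0.96 (SE 0.08). Mesoderm genes gave 6 of 20 lower, Hand1 counted, and 1 (Fgf8) higher (2 and 0 with median centring, 3 and 0 with scaling), with Snai1 down by 0.57.

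Naive pluripotency genes were for the most part not called, but in the main fit a larger share was lower than among all genes. Pou5f1 was at -0.22, Sox2 at 0.01, Klf4 at -0.10, Esrrb at 0.02 and Zfp42 at -0.01, and no probe was matched to Nanog. Myc was at -0.04, and its list of targets had 1 of 22 genes higher (Tfrc) and 1 lower (Nolc1, for which a further probe gave 0.17). Of 32 tested pluripotency genes 7 were lower and 2 higher (1 and 0 with median centring, 1 and 1 with scaling), with a median of -0.08, which scaling between arrays turned to 0.23. The shares were 21.9% lower and 6.25% higher, beside 9.57% and 10.8% of all genes. Tfcp2l1 fell by 0.49 (a further probe gave -0.26), Tbx3 by 0.34, and the leukaemia inhibitory factor pathway genes Socs3, Stat3 and Lifr by 0.33, 0.28 and 0.26. Pecam1 rose by 0.36 and the cytokine receptor gene Il6st by 0.25.

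Neural and Notch genes were on the higher side. Of 27 tested neural genes 9 were higher and none lower (6 with median centring, 5 with scaling), with a median of 0.14 (0.19 within the shared slide). Dll1, a Notch ligand, was at 2.50, 2.59 and 2.53 with shNTC and at 3.15, 3.36 and 3.38 with shCdk8-2, a rise of 0.76 (SE 0.09). Pax6, a neural transcription factor, rose by 0.45 (SE 0.07), from 0.50, 0.52 and 0.53 to 1.00, 1.07 and 0.82. In both the groups were apart. The neural stem cell filament gene Nes rose by 0.30, whereas Sox1 (0.03) and Tubb3 (0.01) were not called. Cplx2, of synaptic vesicles, rose by 0.61, but a further probe gave 0.01. Of 23 Notch genes 7 were higher and 2 (Hey1 and Rbpj) lower (2 and 0 with median centring, 5 and 1 with scaling), and some of them also stand in the neural list. Notch3 rose by 0.40, Notch1 by 0.28, the target Hes5 by 0.40 and the related gene Hes6 by 0.43. The targets Hes1 (0.21) and Nrarp (-0.22) were not called. St8sia3, a sialyltransferase gene, and Ap3b2, a neuronal adaptor subunit gene, were among the 15 highest at 1.11 and 0.84.

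Some stress genes of the endoplasmic reticulum and of amino acid supply rose, fewer of them under other normalizations. Of 23 tested genes of the unfolded protein response 8 were higher and none lower (1 with median centring, 2 with scaling), with a median of 0.15. That median was 0.17 within the shared slide, 0.07 with median centring and 0.04 with scaling. Herpud1, of the degradation machinery, rose by 0.78 (SE 0.07), from -2.89, -2.75 and -2.95 to -1.93, -2.10 and -2.22, with no overlap. The regulator Xbp1 rose by 0.40, Derl3 by 0.39 and the chaperone gene Hspa5 by 0.20. The chaperone gene Calr rose by 0.38, but a further probe gave 0.02 and the slide block ended its call (adjusted p = 0.3). Dnajb9 (0.03) and Dnajc3 (-0.10) were not called.

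The amino acid response, run by the transcription factor ATF4, gave 17 higher and 1 lower of 35 tested (5 and 0 with median centring, 7 and 0 with scaling), with a median of 0.19 (0.16 within the shared slide). With slide as a block, 11 were higher and 1 lower. Slc6a9, a glycine transporter gene, rose by 0.64 (SE 0.06), from -2.04, -2.02 and -2.05 to -1.28, -1.47 and -1.45. Chac1, which degrades glutathione, rose by 0.58 (SE 0.10), from 0.30, 0.26 and 0.02 to 0.81, 0.87 and 0.63. Neither gene's groups overlapped. Atf4 itself rose by 0.34, the asparaginyl-tRNA synthetase gene Nars by 0.46, the amino acid transporter gene Slc38a2 by 0.41 and Trib3 by 0.31. Atf3 was the 1 that fell, by 0.22, while Asns (0.00), Psat1 (0.12) and Sesn2 (-0.06) were not called.

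Promoters of these stress genes were read from the RefSeq promoter table (build GRCm38.p6), which holds 300 bases around each start. They are shown because some members of both lists rose. The motifs searched on both strands were the endoplasmic reticulum stress element, written as CCAAT and CCACG with 9 bases between them, and the CEBP-ATF element TGATGNAA. No promoter shown held both, and capitals mark the match, which describes the letters and is not a site.
Hspa5, chr2:34771840-34772139 (plus strand): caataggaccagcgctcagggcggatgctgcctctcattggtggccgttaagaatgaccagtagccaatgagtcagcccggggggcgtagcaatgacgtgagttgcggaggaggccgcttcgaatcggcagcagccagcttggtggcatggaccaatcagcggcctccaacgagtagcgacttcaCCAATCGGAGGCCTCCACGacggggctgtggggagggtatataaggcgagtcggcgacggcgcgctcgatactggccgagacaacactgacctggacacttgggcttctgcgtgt
Calr, chr8:84846882-84847181 (minus strand): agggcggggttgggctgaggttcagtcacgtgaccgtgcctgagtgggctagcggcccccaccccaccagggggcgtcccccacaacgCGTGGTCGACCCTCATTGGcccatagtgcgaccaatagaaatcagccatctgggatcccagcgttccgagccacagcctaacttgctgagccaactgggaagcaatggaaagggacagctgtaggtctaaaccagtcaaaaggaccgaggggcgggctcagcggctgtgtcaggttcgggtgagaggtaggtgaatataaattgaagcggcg
Derl3, chr10:75893148-75893447 (plus strand): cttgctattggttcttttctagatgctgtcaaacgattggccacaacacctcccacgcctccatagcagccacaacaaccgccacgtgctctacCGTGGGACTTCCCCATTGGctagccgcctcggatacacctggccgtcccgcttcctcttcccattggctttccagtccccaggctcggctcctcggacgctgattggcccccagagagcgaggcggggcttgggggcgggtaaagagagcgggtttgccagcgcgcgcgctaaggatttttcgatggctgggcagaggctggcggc
Herpud1, chr8:94386179-94386478 (plus strand): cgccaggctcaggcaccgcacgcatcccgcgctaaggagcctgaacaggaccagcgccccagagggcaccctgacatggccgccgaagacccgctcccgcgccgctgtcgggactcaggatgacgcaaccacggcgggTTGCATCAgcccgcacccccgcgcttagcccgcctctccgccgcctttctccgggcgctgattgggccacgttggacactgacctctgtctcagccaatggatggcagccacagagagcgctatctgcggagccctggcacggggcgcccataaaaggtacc
Chac1, chr2:119350992-119351291 (plus strand): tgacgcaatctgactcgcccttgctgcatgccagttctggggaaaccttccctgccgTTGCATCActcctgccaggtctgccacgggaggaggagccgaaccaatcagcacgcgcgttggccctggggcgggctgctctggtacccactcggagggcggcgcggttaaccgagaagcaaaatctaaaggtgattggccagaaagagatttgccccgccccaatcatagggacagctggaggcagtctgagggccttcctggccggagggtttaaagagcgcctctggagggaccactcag
Vldlr, chr19:27216770-27217069 (plus strand): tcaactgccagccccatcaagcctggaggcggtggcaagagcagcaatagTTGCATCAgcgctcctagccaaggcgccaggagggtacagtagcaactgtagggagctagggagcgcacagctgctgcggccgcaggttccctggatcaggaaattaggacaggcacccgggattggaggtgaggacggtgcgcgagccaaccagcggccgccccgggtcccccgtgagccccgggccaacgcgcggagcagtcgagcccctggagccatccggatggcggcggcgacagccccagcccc
Atf3, chr1:191183284-191183583 (minus strand): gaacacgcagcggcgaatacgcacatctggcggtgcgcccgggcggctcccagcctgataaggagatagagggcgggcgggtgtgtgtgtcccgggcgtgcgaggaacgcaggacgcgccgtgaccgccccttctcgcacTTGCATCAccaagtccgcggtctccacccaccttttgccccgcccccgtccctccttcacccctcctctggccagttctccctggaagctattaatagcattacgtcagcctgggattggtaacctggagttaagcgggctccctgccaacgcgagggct

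Hspa5, Calr and Derl3 hold the stress element and the other 4 the CEBP-ATF element, on the opposite strand in all but Hspa5. The stress element was found in 39 of 32851 promoters of the table (0.119%). It was in 3 of the 6 promoters matched to higher unfolded protein response genes and in 6 of the 14 matched to members not called. The CEBP-ATF element was in 3.97% of all promoters. It was in 4 of the 13 promoters of higher amino acid response genes (Nupr1, Trib3, Vldlr and Chac1), in 4 of the 15 of members not called, and in that of Atf3, which fell. The letters thus stood in promoters of members that rose and of members that did not.

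Some interferon-inducible genes rose. Of 35 tested genes of the interferon response and antigen processing 10 were higher and 1 lower (5 and 1 with median centring, 1 and 1 with scaling), with a median of 0.10, which scaling turned to -0.06. The interferon-inducible ubiquitin ligase gene Rnf213, outside that list, was at -2.04, -1.90 and -1.90 with shNTC and at -0.81, -1.06 and -0.94 with shCdk8-2, a rise of 1.02 (SE 0.15) with no overlap. The guanylate-binding protein genes Gbp2b and Gbp2 rose by 0.69 and 0.58, the immunoproteasome subunit gene Psmb8 by 0.61 and the regulator Irf1 by 0.46. The RNA sensor gene Ddx58 fell by 0.52, but a further probe gave 0.01, and Isg15 (0.11) was not called.

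Cell cycle and p53 genes showed small changes. Of 30 cell cycle genes 9 were lower and 2 higher (3 and 0 with median centring, 1 and 1 with scaling), with a median of -0.04. The shares of 30% and 6.67% compare with 9.57% and 10.8% of all genes. The cell cycle inhibitor genes Cdkn2b and Cdkn2a fell by 0.54 and 0.45, Aurkb by 0.30 and Ccnb1 by 0.21, while the checkpoint kinase gene Bub1 rose by 0.32. Of 20 p53 targets 5 were lower and 2 higher (3 and 0 with median centring, 3 and 1 with scaling). The share that was lower was 25%, and the 10% that were higher are near the share of all genes. Perp, a desmosome gene, fell by 0.67 (SE 0.05) and Mdm2, the p53 ligase gene, by 0.32, Gadd45a rose by 0.44, and Cdkn1a was at 0.02 and not called.

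Set directly against the second Cdk8 hairpin, shCdk8-2 differed at many genes. On day 8, 2804 genes were higher with shCdk8-2 than with shCdk8-1 (12.5%) and 2436 lower (10.9%). Median centring instead of loess gave 1153 and 535. The 2 hairpins lay on different slides, and with slide as a block 1605 genes were called. The direct differences of genes and the direct list counts that follow come from fits without that block, so slide effects are not taken out of them. Cdk8 was at -1.48, -1.33 and -1.05 with shCdk8-1, below all shCdk8-2 arrays, so 58.3% of the control level remained there against 80.8%. The direct difference in Cdk8 was 0.47 (SE 0.08, adjusted p = 0.00022 in limma). The background of shCdk8-1 replicate 1 was replaced after seeing the data, since its default estimate ran away. Without that array 4189 genes were called and Cdk8 differed by 0.37, and the default estimate on all arrays gave 3974 genes and 0.40.

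Several genes that fell with shCdk8-2 fell less, or stood above control, with shCdk8-1. Foxa2 was at 2.36, 2.30 and 2.23 with shCdk8-1, above the shNTC arrays, and its direct difference was -1.87 (SE 0.06, adjusted p = 4.2e-15 in limma). Aqp8 was at 1.84, 1.72 and 1.76 and its direct difference was -1.85. Fbp1, a gluconeogenic enzyme gene, fell by 0.42 with shCdk8-2 and differed from shNTC by 0.90 with shCdk8-1. Dhrs7 was at -2.69, -2.70 and -2.81 with shCdk8-1, a difference from shNTC of -0.21 beside -1.64, and the direct difference was -1.43. Zfp352 differed from shNTC by 0.26 with shCdk8-1, not called, and its direct difference was -1.38. Acss1, a mitochondrial acetyl-CoA synthetase gene, was higher with both, by 0.34 and 1.65, and its direct difference was -1.31. Of these 6 direct differences Zfp352 moved most with the default background estimate, to -0.97, and it was -1.43 without shCdk8-1 replicate 1.

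In the other direction, Reck, an inhibitor of matrix metalloproteases, was at -0.61, -0.51 and -0.44 with shNTC and at 0.01, 0.33 and 0.29 with shCdk8-2. With shCdk8-1 it was at -1.13, -1.16 and -1.13, and the direct difference was 1.35 (SE 0.07, adjusted p = 1.7e-11 in limma). The 3 groups did not overlap. Tnnt1, a troponin gene, and Ly6g6e, of the Ly6 family, had direct differences of 1.01 and 0.96, and 2610528J11Rik of 1.07. Vamp3, a vesicle protein gene, had one of 1.09, but its shCdk8-2 arrays were at -0.74, -0.59 and 0.02, with replicate 3 apart from the others, and a further probe gave 0.16 against shNTC. Fam13c had one of 0.97, while a further probe gave -0.06 against shNTC in place of 0.73.

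**Figure D3:**
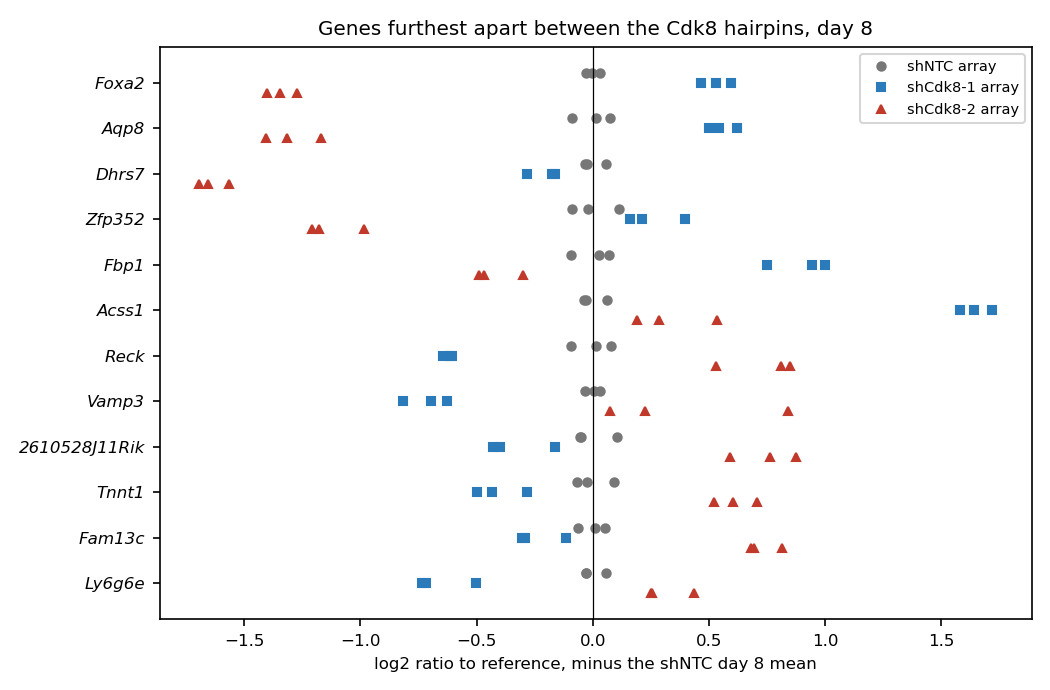
Each point is 1 array of day 8, as the log2 ratio to the reference minus the mean of the 3 shNTC arrays, for the 6 genes lowest and 6 highest with shCdk8-2 against shCdk8-1; grey circles are shNTC, blue squares shCdk8-1 and red triangles shCdk8-2. Foxa2, Aqp8 and Fbp1 lie below shNTC with shCdk8-2 and above it with shCdk8-1.

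The lists separated the hairpins to different degrees, and since both comparisons with control share the shNTC arrays, their values stand side by side. The direct list counts compare with 12.5% higher and 10.9% lower over all genes. Endoderm genes had 16 of 30 lower and 3 higher with shCdk8-2 than with shCdk8-1, with medians of -0.24 and -0.07 against shNTC. The 2-cell-like genes had 10 of 12 lower in the direct comparison, with medians of -0.70 and -0.23. The amino acid response had 14 of 35 higher and 2 lower directly, with medians of 0.19 and 0.00. Neural genes went the other way, with 11 of 27 lower and 1 higher directly and medians of 0.14 and 0.34; Hes6 had a direct difference of -1.03. The primed epiblast medians were 0.33 and 0.41, with 3 of 18 higher and 2 lower directly, near the shares of all genes. With the default background estimate the direct counts of lower genes were 10 for endoderm, 4 for the 2-cell-like list and 6 for neural genes, and without shCdk8-1 replicate 1 they were 15, 8 and 11. The direct count of higher amino acid response genes was 10 with the default estimate and 12 without that array.

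Other genes did not pass the direct test. Fgf5, at 0.94 and 1.17 against shNTC, had a direct difference of -0.23 (SE 0.12, adjusted p = 0.19 in limma), with a 95% interval from -0.48 to 0.03. It was -0.28 without shCdk8-1 replicate 1, and the default background estimate turned it to 0.22 (adjusted p = 0.69). St8sia3 was at 1.11 and 1.11 against shNTC, and the interval of its direct difference runs from -0.17 to 0.17. That interval holds the value without shCdk8-1 replicate 1 (-0.04) but not that with the default background estimate (0.33, adjusted p = 0.31).

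On day 13 the same hairpin lowered Cdk8 with a larger point estimate, and many genes of day 8 had changed. Day 13 has its own shNTC arrays; shCdk8-2 replicate 3 of that day had 48.9% of spots well above background, the fewest of the series, and 3547 genes were called without it. Cdk8 was at -0.57, -0.57 and -0.46 with shNTC and at -1.28, -1.16 and -1.07 with shCdk8-2, a fall of 0.64 that left 64.4%. The change in the Cdk8 difference from day 8 was not called (adjusted p = 0.077 in limma). On day 13, 1936 genes were higher (8.64%) and 1974 lower (8.81%), or 349 and 599 with median centring. Of the called genes, 1346 were called in the same direction on both days, which is 29.5% of the day 8 genes and 34.4% of the day 13 genes. Another 141 went from higher to lower and 178 from lower to higher. The change in the difference between the days was itself called for 2327 genes (10.4%).

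Some falls were called again on day 13. Dhrs7 was at -2.20, -2.19 and -2.23 with shNTC and at -3.65, -3.85 and -3.89 with shCdk8-2, a difference of -1.59 (SE 0.06) beside -1.64 on day 8. Zfp352 differed by -1.09 beside -1.13 and Tcstv3 by -1.31 beside -1.06. The 2-cell-like list again had no gene higher and 10 of 12 lower, with a median of -0.80. Over all genes 8.81% were lower on that day. In 330 of the 13741 tested genes with a symbol, the change was called with shCdk8-2 on both days in 1 direction. It also differed from shCdk8-1 on day 8 in that direction and was not called with shCdk8-1 on that day. Of the 330 genes, 178 were lower, Zfp352, Tcstv3 and Lama1 among them, and 152 higher. These counts come from the main fit only. With the default background estimate the direct call was lost for Tcstv3 (-0.46, adjusted p = 0.22 in limma) and Lama1 (-0.47, adjusted p = 0.38). Zfp352 kept it (-0.97, adjusted p = 0.018).

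Other groups turned. Krt8 was at -1.12, -1.13 and -1.09 with shNTC on day 13 and at -0.74, -0.72 and -0.69 with shCdk8-2, a rise of 0.40 where it had fallen by 1.16 on day 8. Tagln rose by 0.82 on day 13, from -0.03, 0.02 and -0.03 to 0.83, 0.77 and 0.81. Neither pair of groups overlapped on that day. YAP and SRF targets went from 19 of 26 lower to 21 higher and 0 lower, with medians of -0.38 and 0.44, and the change between days was called upward for 21 and downward for 0. Immediate early genes went from 11 lower to 10 higher and 3 lower of 27. The amino acid response went from 17 higher to 13 lower and 0 higher of 35, with a median of -0.13. These day 13 list counts were not checked with median centring or scaling. They compare with 8.64% higher and 8.81% lower over all genes, and the 3 lower immediate early genes are near that share. Chac1 and Otx2, higher on day 8, fell by 0.38 and 0.31 on day 13.

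Endoderm genes stood between these patterns. Foxa2 was at 0.44, 0.38 and 0.45 with shNTC on day 13 and at -0.08, -0.03 and -0.17 with shCdk8-2, a fall of 0.52. Gata6 fell by 0.68 and Sox7 by 0.36, and the change between days was called in all 3. The shNTC level of these genes was itself lower on day 13. On day 8 the shNTC means were 1.77 for Foxa2, -1.22 for Gata6 and 1.33 for Sox7. On the day 13 shNTC arrays Gata6 was at -2.435, -2.589 and -2.541 and Sox7 at 0.705, 0.532 and 0.458. That change in shNTC between days was not tested here. Over the endoderm list, 7 of 30 were lower and 6 higher on day 13. This and the list counts that follow compare with 8.81% lower and 8.64% higher over all genes on that day. Primed epiblast genes gave 4 of 18 higher and 1 lower: Fgf5 rose by 0.49, while Lefty2, at -0.20, and Lefty1, at -0.11, were not called. Notch genes went from 7 higher to 1 higher and 5 lower of 23. Interferon genes had 14 of 35 higher on day 13, and Gbp2b rose by 1.00.

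**Figure D4:**
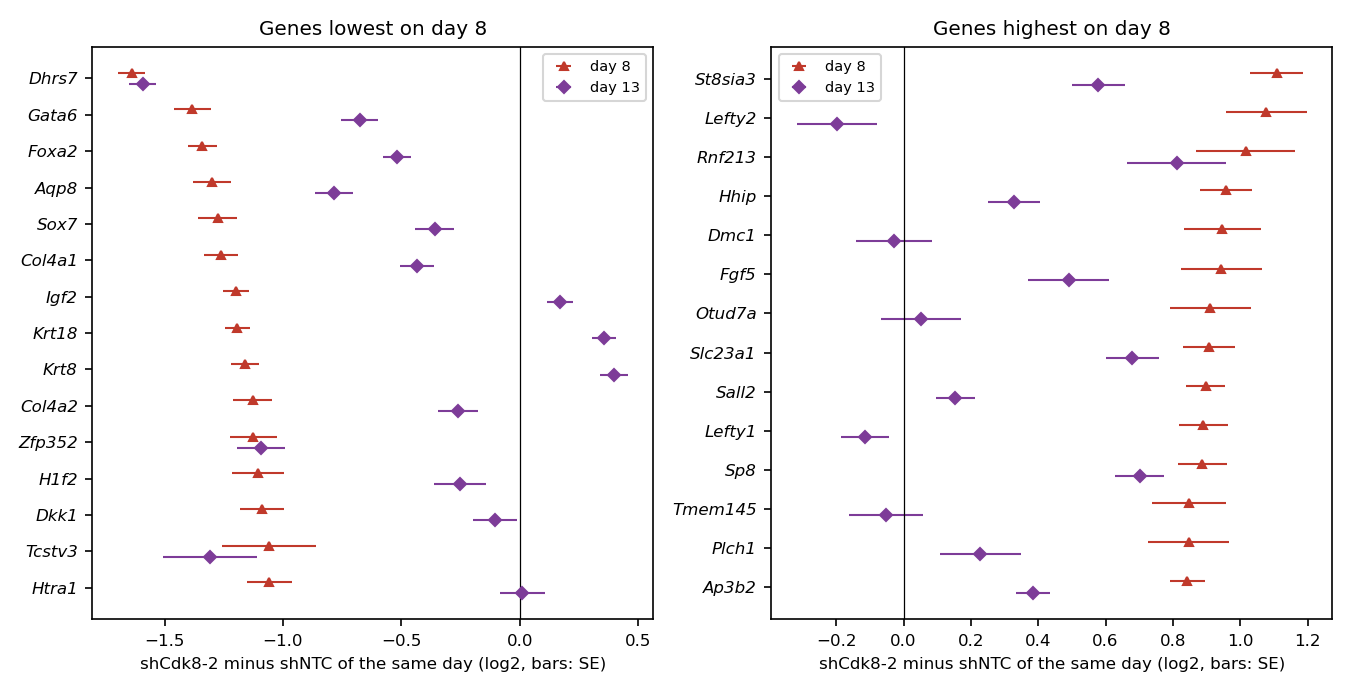
Each point is shCdk8-2 minus shNTC of the same day (log2) with its standard error, for the 15 lowest genes and 14 of the 15 highest of day 8; red triangles are day 8 and purple diamonds day 13. Dhrs7, Zfp352 and Tcstv3 are again below -1 on day 13, while Krt8, Krt18 and Igf2 lie above 0 and Lefty2 lies at -0.20.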

How the data were processed

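RNA of R1 ES cells was hybridised on 24 2-colour Agilent arrays. Spot intensity was read with Agilent Feature Extraction 10.7, per the submitters' processing notes; the median signal and background columns used here are not normalized, per the file headers. The deposited log10 ratios of Cy5 over Cy3 (background-subtracted and dye-normalized, per the file headers) and the authors' deposited log2 value table (slope 1 on the former, column medians from -0.00449 to 0.121) served as alternatives.

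Here intensities were corrected by normexp (offset 50) and loess within arrays, with control spots and outliers at weight 0. On 2 arrays normexp ran away (background SD over 20) and typical values of the other arrays were used, a choice made after seeing the data. One is shCdk8-1 day 8 replicate 1, which enters each direct comparison of the Cdk8 hairpins, and the other a Med12 hairpin array that enters only the pooled spread. Probes were kept if their Cy5 signal was well above background on each of the 3 arrays of any group (28316 of 41174), and the brightest probe stands for a gene (4806 genes had several). RefSeq accessions gave 22951 probes a symbol (GRCm38.p6). limma 3.58.1 in R 4.3.3 fitted 8 group means to 24 arrays, with 16 residual degrees of freedom, over 22404 genes; intervals use the latter. In data simulated with 200 changed genes and independent normal noise, 85% of changes of 0.5 (log2) and 100% of changes of 1 were recovered. There 4.64% of calls were false. The simulation held no slide effect and no normalization error, so it cannot give the false share of the real calls. Alternatives were slide and replicate blocks, other background corrections, normalizations, filters and probe summaries, and leaving out each array; default normexp and scaling between arrays were added after seeing the data. Aquantile leaves log ratios as they are.

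Members and lists were chosen with earlier results of these data known. Named genes were the kinase module, the 15 highest and lowest called genes with a symbol and no overlap, the 6 highest and lowest against shCdk8-1 by the same conditions, up to 5 called members of each list by size, and 7 pluripotency genes (Pou5f1, Nanog, Sox2, Klf4, Esrrb, Zfp42 and Myc). Further list members were named after their values were seen. Some genes that these rules name are not reported here. A probe not well above background in a group gives only a bound and is left without a value.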

Additional observations from a re-analysis of the deposited data

Results flagged for a closer look

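The effect of shCdk8-2 against shNTC differed between day 8 and day 13, by limma's test of that difference, for 28 of the 42 genes described as kinase module members or as extremes of the comparisons. Most of these genes were chosen for their day 8 values, so how many differ is in part set by the choice.

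In 13 of the 28 the day 13 effect lay above that of day 8. The day 13 effect minus the day 8 effect (log2) was 1.56 for Krt8, 1.55 for Krt18 and 1.37 for Igf2, all of which passed from lower on day 8 to higher on day 13. It was 1.07 for Htra1 and 0.98 for Dkk1, 2 genes of secreted proteins. For endoderm factors, collagens and the linker histone it was 0.92 for Sox7, 0.87 for Col4a2, 0.86 for H1f2, 0.83 for Col4a1, 0.82 for Foxa2 and 0.71 for Gata6. It was 0.52 for Fbp1 and 0.52 for Aqp8.

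In 15 of the 28 the day 13 effect lay below that of day 8. The difference was -0.37 for Fam13c, -0.38 for Tnnt1, -0.46 for Ap3b2, -0.47 for 2610528J11Rik and -0.53 for St8sia3. It was -0.62 for Plch1, -0.63 for Hhip and -0.63 for Acss1, and -0.74 for Sall2, -0.86 for Otud7a, -0.90 for Tmem145 and -0.98 for Dmc1. The largest were -1.01 for Lefty1, -1.28 for Lefty2 and -1.36 for Ly6g6e. Acss1 and Ly6g6e passed from higher on day 8 to lower on day 13.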

How the results depend on the processing

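Depth is set here by signal over background on 3 arrays a group, which limits the precision of every value. The 4561 genes called against shNTC on day 8 became 985 with median centring in place of loess and 1800 with scaling between arrays. They numbered 3076 with slide as a block, and leaving out each array in turn gave 3449 to 3985. The replicate numbers did not pair the arrays (correlations of deviations of 0.035, 0.053 and -0.018), and with the replicate block 4464 genes were called. Against shCdk8-1, 5240 calls became 3031 with only the arrays compared, 1688 with median centring, 3397 with scaling and 1605 with slide as a block, and 3917 to 5111 without 1 array. On day 13, 3910 calls became 948 with median centring, 2588 with the default normexp estimates and 908 with scaling, and 2744 to 3547 without 1 array. For the change between days, 2327 calls became 312 with median centring, 1533 in the Cy5 channel alone, 1313 with the default normexp estimates and 445 with scaling, and 1743 to 2540 without 1 array. The highest of these, 2540, left out shCdk8-2 day 13 replicate 3. The cause of these changes was not tested. Of 155 named genes, 147 of them called, 133 kept direction and side of the threshold under the slide block, 104 under median centring and 82 under scaling.

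Of called genes, Tdh (-0.39) turned to 0.217 after scaling and Cdk19 (-0.19) to 0.213 in Cy5 alone. The other genes that turned sign were not called. Med13l was at -0.019 in the slide block fit, -0.025 in the Feature Extraction ratios and the authors' table, -0.049 in Cy5 alone and -0.032 to 0.129 without 1 array. Esrrb was at -0.061 in the slide block fit, -0.012 by median centring, -0.098 without background subtraction and in the Feature Extraction and authors' ratios, and -0.06 to 0.085 without 1 array. Myc was at 0.036 in the slide block fit, 0.016 as a mean over probes and -0.105 to 0.06 without 1 array. Sox2 was at -0.011 by median centring, -0.149 without background subtraction, -0.024 in Cy5 alone and -0.122 to 0.146 without 1 array. Zfp42 was at 0.231 in Cy5 alone, 0.012 as a mean over probes, 0.748 after scaling and -0.061 to 0.023 without 1 array. After scaling, Pou5f1 was at 0.28 and Klf4 at 0.091, and Cdk8 was at -0.40 and not called (adjusted p = 0.052 in limma).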

Other observations

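Metabolic lists held genes that changed in both directions with shCdk8-2 on day 8. Of 33 tested genes of cholesterol and fatty acid synthesis 9 were higher (27.3%, beside 10.8% of all genes) and 2 lower (1 and 1 with median centring, 2 and 1 with scaling), with a median of 0.03. Abca1, which exports cholesterol, rose by 0.47 and the squalene epoxidase gene Sqle by 0.33, whereas the sterol carrier gene Stard4 fell by 0.41. In glycolysis and hypoxia, 4 of 26 were higher and 4 lower (1 and 2 with median centring, 1 and 0 with scaling), with a median of 0.00. These shares of 15.4% each are near those of all genes (10.8% higher and 9.57% lower). The mitophagy gene Bnip3 rose by 0.50, while P4ha2, a collagen prolyl hydroxylase gene that also stands in the parietal endoderm and 2-cell-like lists, fell by 0.90. Ero1a fell by 0.35, but a further probe gave 0.22.

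Imprinted genes gave 4 higher and 3 lower of 24 (16.7% and 12.5%), also near the shares of all genes. Beside Igf2, Impact fell by 0.42 with shCdk8-2, whereas it differed from shNTC by 0.48 with shCdk8-1, a direct difference of -0.90. HOX genes gave 2 higher and 3 lower of 24 (8.33% and 12.5%), with Hoxb2 up by 0.32 and Hoxa7 down by 0.28. In the list of extracellular matrix and feeder genes, 1 of 27 was higher and 3 were lower (3.7% and 11.1%), with a median of -0.17. The metalloprotease inhibitor gene Timp2 fell by 0.65.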
